A study of Mus musculus with 3 samples.

Results

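The cells described here are dendritic cells of the mouse airspace that carried the messenger RNAs of a mature, migrating state together with a panel of 5 genes, Clu, Ceacam15, Dkk2, Stxbp6 and Il2ra. A cell entered the class when it showed 200 genes or more with mitochondrial transcripts at 20% or less of its UMIs (unique molecular identifiers, 1 per counted transcript), when Lyz2 made up less than 0.5% of its UMIs, and when it held at least 3 UMIs over Ccr7, Fscn1, Ccl22, Cacnb3 and Nudt17. These conditions are called the migratory gate. It also needed at least 2 UMIs over the 5 panel genes, and more of them than over either of a pair of rival panels of 5 genes each. In all, 1902 of 42888 kept cells met the rule and are called P1 cells. Cells led by Il12b, Mab21l3, Tm4sf5, Bcl2l14 and Itgb8 are called P2 cells (2143 cells), and cells led by Glis3, Mylk, Stard10, Edil3 and Ramp3 are called P3 cells (1331 cells).

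The study followed mice whose airways were instilled with bleomycin, a drug that damages lung tissue and is used to model pulmonary fibrosis. Lavage fluid was taken 14 days later, the fluid of a group's mice was combined, and cells positive for CD11b or CD11c were sorted for droplet sequencing of transcript 3′ ends. The 3 groups were wild-type mice labelled DMSO (WT DMSO), wild-type mice labelled GW5074 (WT GW5074), and knockout mice labelled DMSO (KO DMSO), which lack Clec7a (it encodes Dectin-1, a receptor for β-glucan). All 3 groups had received bleomycin, so no uninjured lung is among them. GW5074 is a small-molecule kinase inhibitor, and DMSO is its usual solvent. The age and number of the mice, the dose of each agent and the deleted exons were not given in the sources used here. Each group was 1 library, so no test between groups was possible, and a difference between groups cannot be told apart from one between pools or runs. Values given as a series of 3 stand in the order WT DMSO, WT GW5074, KO DMSO. The intervals given are at 95% and reflect counting error alone.

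Dendritic cells sample the airways, and those that take up antigen or sense injury mature, stop sampling, rebuild their actin skeleton and raise the chemokine receptor CCR7, which draws them along CCL19 and CCL21 to the lymph node that drains the lung. There they show peptides and co-stimulatory molecules to T cells. Mature cells that come from the conventional type 1 and type 2 lineages lose many of the surface markers that set those lineages apart. Among the panel genes, Clu encodes clusterin, a secreted chaperone that also binds terminal complement. Dkk2 encodes a secreted antagonist of Wnt signals that binds the co-receptors LRP5 and LRP6. Il2ra encodes CD25, the α chain of the interleukin 2 receptor, Stxbp6 encodes a protein that binds SNARE complexes of vesicle fusion, and Ceacam15 belongs to the carcinoembryonic antigen family. Clu is annotated at chromosome 14, 65968483 to 65981547, on the plus strand (GENCODE M21, GRCm38). Ceacam15 is annotated at chromosome 7, 16671331 to 16675705, on the minus strand. Dkk2 is annotated at chromosome 3, 132085292 to 132180304, on the plus strand. Stxbp6 is annotated at chromosome 12, 44852484 to 45074709, on the minus strand. Il2ra is annotated at chromosome 2, 11642807 to 11693193, on the plus strand. All 5 are protein-coding genes.

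The promoters of Dkk2 and Il2ra are shown because both genes name the class and both hold a match to an NF-κB motif, the family that drives dendritic cell maturation. The bases are the 250 before the annotated start in RefSeq (GRCm38.p6), written 5′ to 3′ on the gene's strand, with the match in capitals. Dkk2 lies on the plus strand, and the stretch is chr3:132085042-132085291. Il2ra lies on the plus strand, and the stretch is chr2:11642542-11642791. Both stretches end where RefSeq's transcript begins and hold no exon of it.
Dkk2: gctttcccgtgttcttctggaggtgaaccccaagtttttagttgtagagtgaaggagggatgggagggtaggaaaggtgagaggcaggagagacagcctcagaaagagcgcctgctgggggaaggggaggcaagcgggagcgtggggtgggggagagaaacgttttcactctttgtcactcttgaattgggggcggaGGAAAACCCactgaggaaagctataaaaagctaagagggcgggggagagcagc
Il2ra: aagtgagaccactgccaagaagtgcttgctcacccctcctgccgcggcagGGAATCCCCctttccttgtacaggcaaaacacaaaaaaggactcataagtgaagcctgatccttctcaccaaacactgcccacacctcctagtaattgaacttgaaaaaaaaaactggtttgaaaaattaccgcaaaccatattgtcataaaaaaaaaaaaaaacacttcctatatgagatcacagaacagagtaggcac
The only motif searched was GGGNNTTCC, on either strand. Its first base lay 53 bases before the start in Dkk2 and 200 bases before it in Il2ra. In 32851 promoters of the same length 1635 (4.98%) held a match. Of the 5 panel genes, 4 had an entry, and 2 of these, Dkk2 and Il2ra, held a match. Ceacam15 and Stxbp6 had none of these letters in the window, and Clu had no entry. A match is a description of the letters and not a measured binding site.

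The summed count over the panel reached a median of 4, 3 and 4 UMIs per P1 cell and a highest value of 49, 31 and 22. Cells at exactly 2 UMIs, the lowest value allowed, numbered 128, 208 and 138. Just outside the rule stood 125, 176 and 91 gated cells with 1 panel UMI and none of a rival panel, and 135, 93 and 67 cells that tied with a rival panel. The median P1 cell held 2998, 1628 and 2376 UMIs and 1397, 920 and 1152 genes, lowest in the GW5074 library. Mitochondrial UMIs made up a median of 1.15%, 1.46% and 1.39%. The cells were chosen by their measured UMIs of the panel, gate, Lyz2 and mitochondrial genes, so these values are given as a description.

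Panel genes were spread unevenly over the class. Stxbp6 was found in 73.2%, 73.4% and 83.0% of P1 cells and supplied 39.9%, 46.2% and 54.0% of all panel UMIs. Il2ra was found in 52.2%, 40.6% and 46.9%, Clu in 30.1%, 25.6% and 19.2%, Ceacam15 in 21.9%, 19.8% and 20.4% and Dkk2 in 18.2%, 16.1% and 18.0%. Most P1 cells therefore had no UMI of Clu and none of Dkk2. Kept cells with Lyz2 at 0.5% of UMIs or more are called cells with high Lyz2. They had a Stxbp6 UMI in 3.47%, 2.64% and 3.10% of cells and an Il2ra UMI in 1.58%, 1.15% and 1.15%. A Clu UMI was found in 0.802%, 0.562% and 0.486% of them. Their median depth was 3852, 2608 and 3214 UMIs. Among them 33, 107 and 56 cells met every other condition of the P1 rule. These shares therefore do not measure free RNA alone. At least 2 different panel genes were present in 73.2%, 61.7% and 67.3% of P1 cells, and no cell had all 5.

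**Figure D1:**
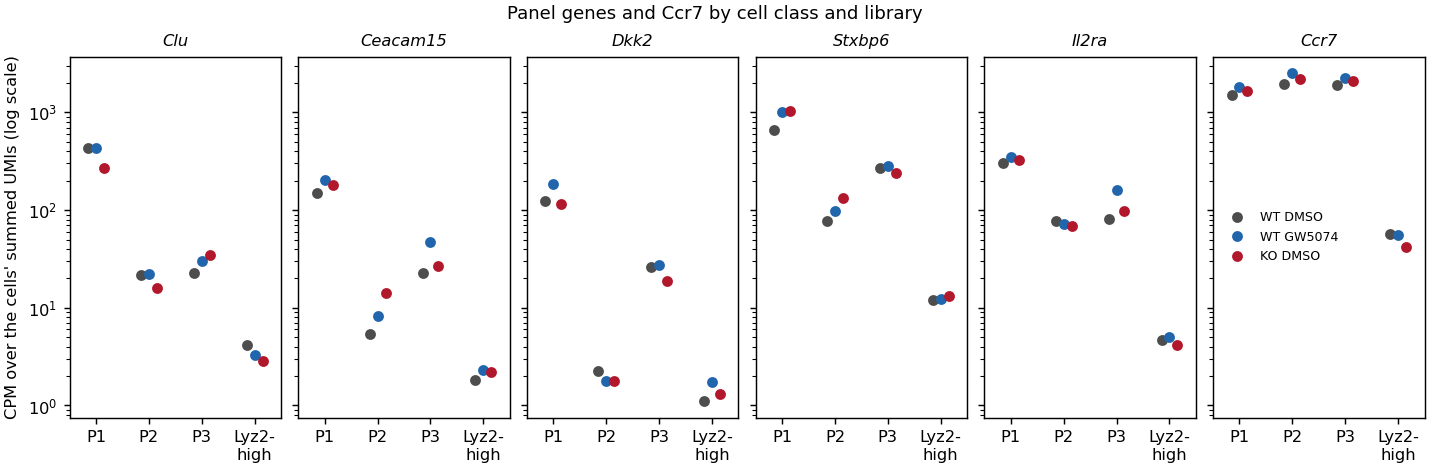
Levels of the 5 panel genes and of Ccr7 (1 panel each, CPM on a log axis, UMIs summed over a class and scaled to a total of 1000000), 1 point per library in P1, P2, P3 and Lyz2-high cells. Clu stood at 429, 436 and 268 CPM in P1 cells and lower in every other class, while Ccr7 lay between 1509.9 and 2505 CPM in P1, P2 and P3 cells.

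In the summed counts of the class, scaled to a total of 1000000 (CPM), Clu stood at 429, 436 and 268 CPM in P1 cells, 21.8, 22.3 and 16.0 CPM in P2 cells and 22.8, 30.2 and 34.6 CPM in P3 cells. Dkk2 stood at 125, 183 and 114 CPM in P1 cells and at 2.24, 1.76 and 1.77 CPM in P2 cells. Il2ra stood at 300.4, 352 and 325 CPM, Stxbp6 at 668, 1006 and 1044 CPM and Ceacam15 at 150.4, 202 and 181 CPM in P1 cells. The KO library had the lowest Clu level of the 3, and the WT DMSO library the lowest Stxbp6 level, as in the plot of panel genes by class. Ccr7, which the gate used, was found in 93.04%, 91.3% and 94.9% of P1 cells against 9.84%, 6.74% and 5.69% of cells with high Lyz2.

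Of the genes that give the class its name, Clu and Dkk2 did not go together, while Il2ra went with Dkk2. Over all cells of the migratory gate, a Dkk2 UMI was present in 5.51%, 3.21% and 7.05% of the cells with a Clu UMI and in 6.85%, 6.33% and 8.12% of those without. For Il2ra the shares were 26.4%, 16.5% and 24.4% of cells with Clu and 25.1%, 21.3% and 26.5% of cells without. Clu was thus not accompanied more often by Dkk2 in any library. Stxbp6 did go with Clu, in 52.8%, 42.6% and 56.4% of cells with Clu against 36.4%, 33.4% and 45.9% of the others. It went with Il2ra as well, which was present in 31.4%, 27.2% and 33.3% of cells with Stxbp6 against 21.4%, 17.5% and 20.2% of the rest. Il2ra was likewise found in 33.0%, 28.9% and 37.1% of cells with Dkk2 and in 24.6%, 20.3% and 25.4% of those without. Cells of 1 library share their pool and their depth varies, so these shares describe the libraries. P1 is used below as the name of the rule, and no single cell type is claimed for it.

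Markers of the mature state and of conventional dendritic cells were present in all libraries. Of the 23 listed genes of migratory or mature dendritic cells 5 were the gate genes. The other 18 stood at 50 CPM or more in each library and summed to 14365, 14910 and 17697 CPM. Zbtb46, the transcription factor of conventional dendritic cells, stood at 183, 209 and 198 CPM and the growth factor receptor gene Flt3 at 438, 435 and 351 CPM. Some surface genes that separate the resting lineages were near 0 and others were not. Xcr1 and Clec9a of type 1 cells stood at 5.69, 0.860 and 2.08 CPM and 7.12, 6.88 and 3.46 CPM, and Cd209a of type 2 cells at 1.90, 2.58 and 1.38 CPM. Sirpa, a further surface gene of type 2 cells, stood at 105, 108 and 69.9 CPM, and Cd24a, of type 1 cells, at 104, 78.2 and 62.3 CPM. Siglech, which defines plasmacytoid dendritic cells, stood at 0.475, 0 and 0 CPM, and Cd3e of T cells at 5.69, 1.72 and 0.692 CPM. The 7 listed markers of plasmacytoid dendritic cells summed to 330, 306 and 314 CPM, and 2 of them stood at 50 CPM or more in each library. That list summed to 345, 268 and 321 CPM in P2 cells and 352, 234 and 354 CPM in P3 cells.

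P1 cells differed from P2 cells of the same library in many genes and from P3 cells in few. A gene was counted when it had at least 50 CPM in 1 of both classes and at least 30 UMIs over both. It was called higher or lower when it differed by at least 1.5-fold with an interval that excluded a ratio of 1, in each of the 3 libraries. Over P2 cells 103 of 2882 genes (3.57%) were higher and 139 (4.82%) lower. Over P3 cells 6 of 2868 genes (0.209%) were higher and 7 (0.244%) lower. P3 cells numbered 981, 201 and 149, so fewer genes could pass there. Genes that go with the panels are part of how the cells were chosen, and nothing is read from these shares.

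Genes higher than in P2 cells included Dscam, Fabp4, Fabp5, Gpr183, Nrp2, Slc7a11 and Zeb2. The cell adhesion gene Dscam stood at 213, 229 and 215 CPM in P1 cells and 27.2, 27.6 and 26.6 CPM in P2 cells, with log2 ratios of 2.97, 3.05 and 3.02. Fabp5, which binds fatty acids, stood at 3134, 2456 and 4049 CPM against 754, 775 and 1081 CPM, and Fabp4 at 140.5, 101 and 125 CPM against 22.4, 11.7 and 13.01 CPM. All 3 genes were higher in each library. Gpr183, the receptor for oxysterols that positions dendritic cells, had log2 ratios of 2.11, 1.94 and 2.43. Nrp2, a receptor for semaphorins, had 2.11, 2.55 and 2.32, and Slc7a11, the cystine transporter, had 2.24, 1.98 and 1.96. Zeb2, a transcription factor of type 2 dendritic cells and monocytes, had 1.83, 2.27 and 1.82.

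Irf4 was higher in P1 than in P2 cells and Irf8 lower. Irf4, a regulator of type 2 dendritic cells, had log2 ratios over P2 cells of 1.502, 1.46 and 0.98, and Sirpa, their surface marker, 1.32, 1.005 and 1.39. Irf8, a regulator of type 1 cells, had −1.36, −1.26 and −1.61. Among the listed type 2 genes 2 of 3 counted, Irf4 and Sirpa, were higher and 0 lower, with medians over the counted genes of 1.32, 1.005 and 0.98. Among the listed type 1 genes 1 of 4 counted, Irf8, was lower and 0 higher, with medians of 0.00, 0.18 and −1.04, which did not have 1 sign. Over all genes counted 3.57% were higher and 4.82% lower, with a median of 0.04. The nuclease gene Dnase1l3 was the lowest of all, at 4.27, 6.02 and 2.77 CPM against 68.5, 73.3 and 53.8 CPM. The actin-severing gene Scin stood at 61.7, 56.7 and 56.1 CPM against 314, 277 and 289.7 CPM. The tetraspanin gene Cd81 stood at 30.4, 32.7 and 38.1 CPM against 143, 166 and 203 CPM. Against P3 cells 0 of 3 counted type 2 genes and 0 of 4 type 1 genes were called, beside 0.209% higher and 0.244% lower. The medians there were −0.09, 0.05 and 0.25 for type 2 genes and −0.01, −0.28 and −0.54 for type 1 genes.

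**Figure D2:**
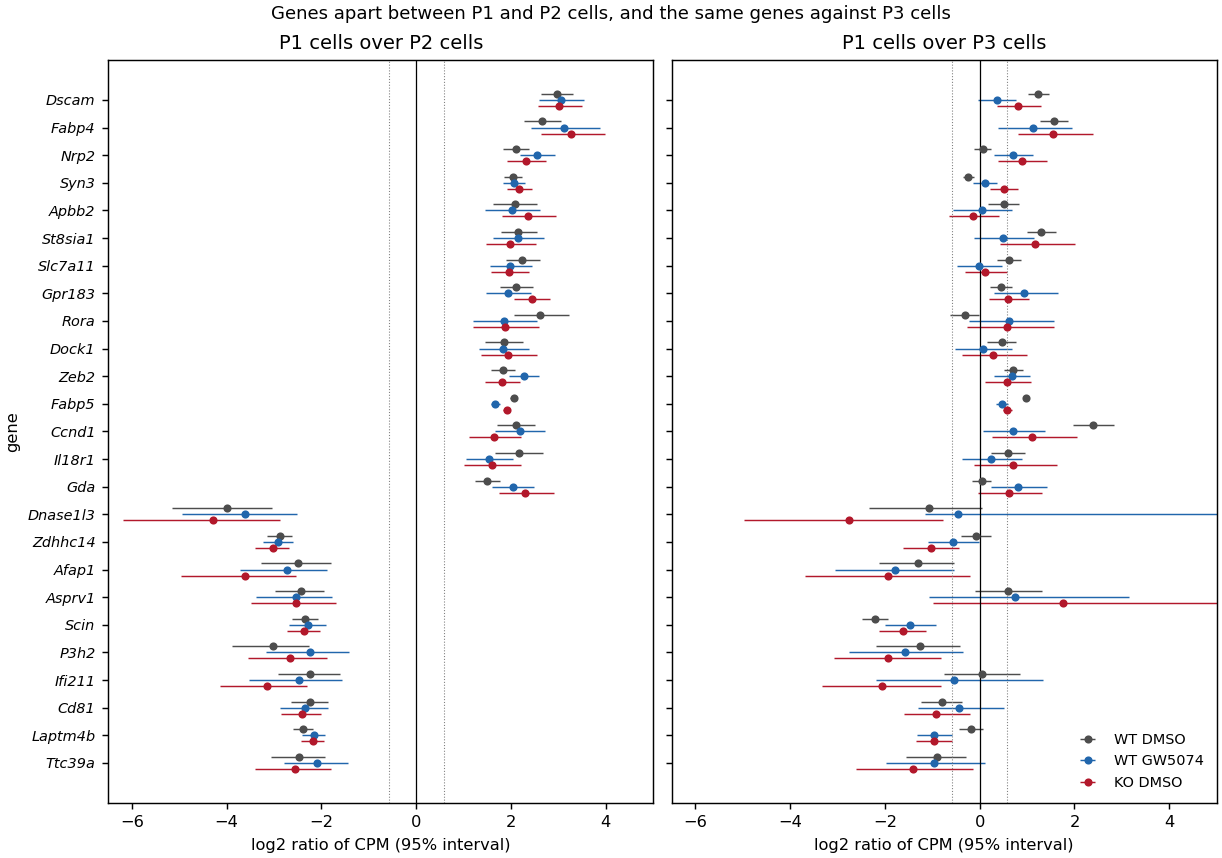
Log2 ratio of CPM (horizontal axis) of named genes in P1 over P2 cells (left) and P1 over P3 cells (right), 1 point per library with its 95% counting interval, cut at the edge of the axis where it reaches past it, and dotted lines at a 1.5-fold difference. Over P2 cells the libraries lay at 2.97, 3.05 and 3.02 for Dscam and −4.00, −3.61 and −4.28 for Dnase1l3, and over P3 cells Dscam lay at 1.24, 0.36 and 0.81.

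Genes of class I antigen presentation were lower in P1 than in P2 cells in part. The median log2 ratio of the 13 listed genes was −0.55, −0.48 and −0.51, beside 0.04 over all genes counted and libraries, and 2 of the 13, Tap1 and Nlrc5, passed in every library, beside 4.82% lower over all genes. Tap1, the peptide transporter, had −0.63, −0.61 and −0.62, and Nlrc5, the activator of class I genes, had −0.81, −0.97 and −0.97. Of 12 counted class II genes, 2 were higher (H2-DMb2 and Ctsh) and 2 lower (Cst3 and Lgmn), beside 3.57% and 4.82% over all genes. Interleukin 1 genes were higher for 2 of 4 counted, again beside 3.57%, Il1b with 0.63, 0.92 and 1.81 and Il18r1 with 2.16, 1.54 and 1.60. Il7r, the receptor chain shared by interleukin 7 and TSLP, had 1.28, 1.09 and 1.15. Syk, the kinase that Dectin-1 engages, had 1.35, 1.38 and 1.30. Against P3 cells 0 of 13 class I genes were called, with medians of 0.06, −0.14 and −0.17. Of 3 counted genes of the pattern recognition list, which holds Syk, 0 were called there. Over all genes 0.209% were higher and 0.244% lower than in P3 cells.

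Of the genes that passed against P3 cells, Fabp4 was higher in each library, with log2 ratios of 1.57, 1.12 and 1.56, and so was the cyclin gene Ccnd1, with 2.40, 0.70 and 1.10. H2-Eb2, Rcsd1 and the adhesion gene Alcam were higher too, Alcam with 0.73, 0.59 and 0.88. Scin was lower, by log2 ratios of −2.21, −1.46 and −1.63, and so was Ndrg1, a gene of the response to low oxygen, with −2.18, −1.35 and −0.94. Crem, a repressor of cyclic AMP signals, had −0.72, −1.27 and −1.11.

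Of the interleukin 2 receptor chains, Il2ra is a panel gene, so its level in P1 cells is set in part by the rule. In gated cells outside P1 it stood at 80.3, 93.2 and 80.1 CPM. In P1 cells Il2ra stood at 300.4, 352 and 325 CPM and Il2rg, the shared γ chain, at 74.97, 68.8 and 77.5 CPM. Il2rb, the β chain of the same receptor, stood at 3.32, 1.72 and 1.38 CPM, from 7, 2 and 2 UMIs, and the cytokine gene Il2 at 0, 0 and 0.692 CPM. Stat5a and Stat5b, which carry the signal, stood at 123, 154 and 111 CPM and 126, 144 and 94.1 CPM, and Socs2, a feedback inhibitor that mature dendritic cells express, at 419, 428 and 466 CPM. Of the 10 genes of this list counted against P2 cells 1, Il7r, was higher and 0 lower, beside 3.57% and 4.82% of all genes. Of the 11 counted against P3 cells 0 were called, beside 0.209% higher and 0.244% lower.

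Of the Wnt genes, the co-receptor genes Lrp6 and Lrp5 stood at 38.4, 62.8 and 40.1 CPM and 16.6, 12.04 and 8.31 CPM in P1 cells. Kremen1, a further receptor for Dickkopf proteins, stood at 6.64, 12.04 and 10.4 CPM. Axin2, a common target of the pathway, stood at 0.949, 1.72 and 1.38 CPM, and Dkk1 was at 0 in all 3 libraries. Tcf7, which encodes a DNA-binding partner of β-catenin, stood at 104, 116 and 81.7 CPM and was higher than in P2 cells, with log2 ratios of 0.72, 0.89 and 0.70. Of the 4 Wnt genes counted in that comparison 1, Tcf7, was higher and 0 lower, beside 3.57% and 4.82% of all genes. Of the 4 counted against P3 cells 0 were called, beside 0.209% higher and 0.244% lower.

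Since Clu and Dkk2 did not go together, P1 cells with a Clu UMI (199, 167 and 113 cells) were set beside those without (462, 486 and 475 cells). This division was chosen after the data were seen, and it is a description. Cells without Clu had to reach the rule through the other 4 genes. Their median depth was 2800.5, 1567.5 and 2370 UMIs, against 3493, 1823 and 2561 with Clu. By the same fold and interval in each of the 3 libraries, 15 of 2860 genes (0.524%) were higher in cells with Clu and 45 (1.57%) were lower.

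Sod3, Ltc4s, Ctss, Cstb and Mfge8 were higher in cells with Clu. Sod3, the extracellular superoxide dismutase, stood at 111, 184 and 123 CPM in cells with Clu and 11.7, 16.9 and 28.0 CPM in cells without. Ltc4s, the synthase of the lipid mediator leukotriene C4, stood at 201, 187 and 197 CPM against 61.3, 62.9 and 45.4 CPM. The protease gene Ctss stood at 1703, 1894 and 1833 CPM against 1019, 1156 and 1208 CPM, and its inhibitor gene Cstb at 672, 571 and 737 CPM against 341, 295 and 392 CPM. Mfge8, a secreted bridge for dying cells, stood at 136, 122 and 96.7 CPM against 37.2, 54.4 and 32.3 CPM, a smallest log2 ratio of 1.16. With at least 2 different panel genes required, that ratio was 0.04, no longer past the fold, while that of Sod3 was 2.48.

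Genes lower in cells with Clu included Cd80, Cd86, Ly75, H2-Ab1, Ciita and Tcf7. Cd80 stood at 139.9, 158 and 233 CPM in cells with Clu and 331, 416 and 402 CPM in cells without, and Cd86 at 177, 134 and 170 CPM against 335, 336 and 337 CPM. Both ligate CD28 on T cells. Ly75, which encodes the uptake receptor DEC-205, stood at 258, 244 and 290 CPM against 567, 740.1 and 655 CPM, and the class II chain gene H2-Ab1 at 892, 737 and 450 CPM against 1478, 1498 and 1535 CPM. Ciita, the master activator of class II genes, had log2 ratios of −1.503, −1.29 and −2.86, and Tcf7 had −1.27, −1.81 and −2.57. Cd74, the invariant chain gene of class II, had −0.18, −0.31 and −0.52 and did not pass. The macrophage gene Lyz2 had 0.32, −0.09 and −0.09 and S100a8 0.03, 0.20 and −2.93, so neither had 1 sign in all libraries.

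**Figure D3:**
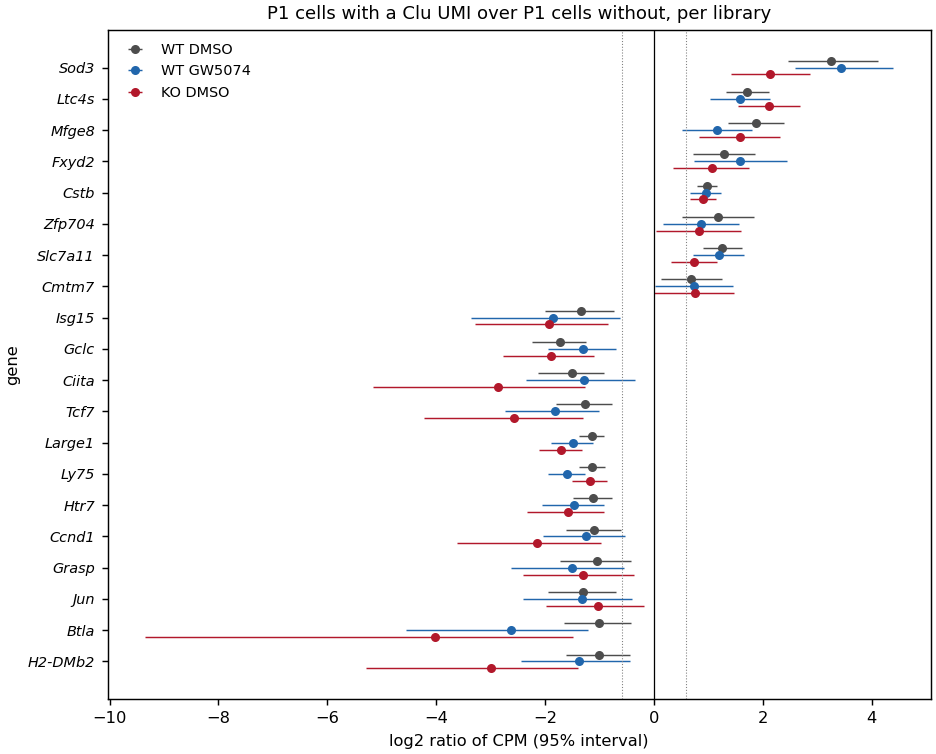
Log2 ratio of CPM (horizontal axis) of named genes in P1 cells with a Clu UMI over P1 cells without, 1 point per library with its 95% counting interval, and dotted lines at a 1.5-fold difference. Sod3 lay at 3.25, 3.44 and 2.14 and Ly75 at −1.14, −1.60 and −1.18.

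The knockout was checked on Clec7a, the deleted gene. Clec7a (ENSMUSG00000079293; chromosome 6, 129461591 to 129472779, minus strand, GRCm38) stood at 71.7, 86.0 and 0.692 CPM in P1 cells, from 151, 100 and 1 UMIs. The level in the KO library rested on 1 UMI in 1 cell. The UMIs count 3′ ends, so they show loss of the transcript's end and not which exons were removed.

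P1 cells were a larger share of the migratory gate in both other libraries than in WT DMSO. They made up 20.1% (18.7 to 21.5), 24.8% (23.2 to 26.5) and 33.7% (31.5 to 36.0) of gated cells. The ratio of shares was 1.24 (1.11 to 1.38) for GW5074 and 1.68 (1.4996 to 1.88) for KO over WT DMSO. On the log2 scale the ratio for GW5074 was 0.31, and it was 0.06 when at least 3 panel UMIs, or at least 2 different panel genes, were required. P3 cells took 29.8%, 7.63% and 8.54% of the gate and P2 cells 24.3%, 29.1% and 33.1%. P3 cells were thus the class with the lower share in both, and shares of a gate sum to a whole. Of P1, P2 and P3 cells together, P1 cells were 27.1%, 40.3% and 44.7%.

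Over all kept cells the order was another. P1 cells were 4.91% (4.55 to 5.29), 3.67% (3.40 to 3.96) and 5.05% (4.66 to 5.46) of kept cells, a ratio of 0.747 (0.669 to 0.834) for GW5074 and 1.03 (0.918 to 1.15) for KO. Kept cells with over 1% of UMIs from Csf3r, S100a8 and S100a9, called neutrophil-gate cells, were 25.6%, 1.10% and 1.86% of the 3 libraries. Without them the P1 shares were 6.37%, 3.71% and 5.12%, and the ratios 0.583 (0.522 to 0.651) and 0.804 (0.717 to 0.901). Cells with at least 1000 UMIs were thinned to 1000 UMIs, and all others were left out. This left 9960, 15756 and 10676 kept cells, against 13454, 17792 and 11642 at full depth, so the libraries lost unequal shares. After it P1 cells were 11.8%, 17.0% and 20.3% of the gate and 3.15%, 2.24% and 2.83% of kept cells. Thinning left out 17, 71 and 18 P1 cells with fewer UMIs. After thinning 314, 353 and 302 cells met the P1 rule, against 661, 653 and 588 at full depth. Many P1 cells that were deep enough thus no longer met the rule. Some cells that met it after thinning were not P1 cells at full depth. The P1 share of the gate was lowest in WT DMSO both at full depth and after thinning. The sort and the pooled lavage also set such shares, and their part was not tested.

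**Figure D4:**
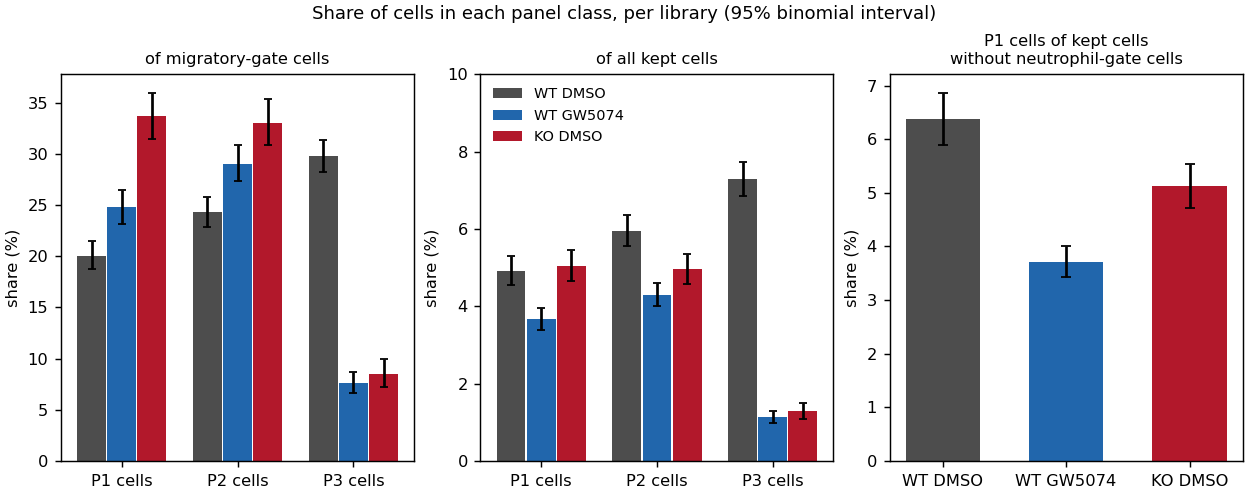
Bars give the share of P1, P2 and P3 cells among gated cells (left) and among kept cells (middle), and of P1 cells among kept cells without neutrophil-gate cells (right), in percent per library, with exact 95% binomial intervals. P1 cells were 20.1%, 24.8% and 33.7% of the gate, while P3 cells were 29.8%, 7.63% and 8.54%.

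Within P1 cells few genes differed between GW5074 and WT DMSO. Of 3308 genes with at least 50 CPM in 1 of both libraries and 30 UMIs over both, 55 (1.66%) were at least 1.5-fold higher and 66 (2%) lower with an interval that excluded 1. Between KO and WT DMSO, 127 of 3259 genes (3.9%) were higher and 272 (8.35%) lower. The higher genes were 45.5% of those called for GW5074 and 31.8% for KO. Scaling by the median of ratios in place of the summed total gave 41 higher and 81 lower genes for GW5074 (33.6% higher), and 176 higher and 199 lower for KO (46.9% higher). Both comparisons use the same WT DMSO library, so a value that is off in that library moves both. Their values are given side by side.

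**Figure D5:**
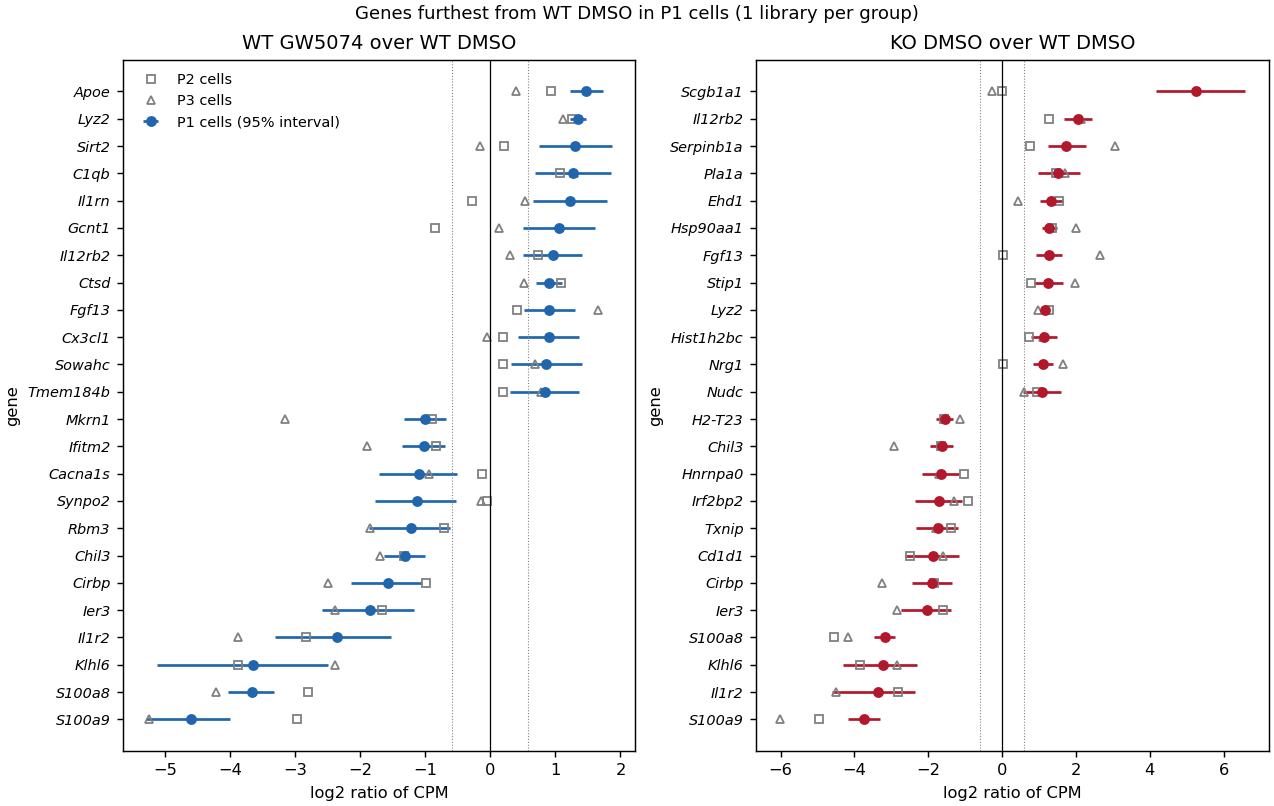
Log2 ratio of CPM (horizontal axis) over WT DMSO for the named genes, for GW5074 (left) and KO (right), with P1 cells as filled points with 95% counting intervals, P2 cells as squares, P3 cells as triangles and dotted lines at a 1.5-fold difference. In P1 cells the ratios of S100a8 were −3.66 and −3.18, and those of Il12rb2 0.96 and 2.05.

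The lowest ratios with GW5074 were those of S100a9 and S100a8. They encode the subunits of calprotectin, a protein that neutrophils store. S100a8 stood at 752, 59.3 and 83.1 CPM in P1 cells, found in 296, 32 and 29 cells, and S100a9 at 459, 18.9 and 34.6 CPM. The WT DMSO library was high and both others low. S100a8 was 12.7-fold (9.96 to 16.4) lower with GW5074 and 9.05-fold (7.51 to 10.99) lower in KO. The 10 listed neutrophil markers summed to 1349, 104 and 137 CPM, with 1, 2 and 1 of them at 0. Ly6g, a defining marker, was at 0 in all 3 libraries. Neutrophil-gate cells were 25.6%, 1.10% and 1.86% of kept cells. P1 cells in the neutrophil gate numbered 24, 0 and 3. Without these cells the log2 ratios of S100a8 were −2.60 and −4.15. P2 and P3 cells had log2 ratios of −2.81 and −4.21 for GW5074. The part of neutrophil RNA in these ratios was not tested.

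Il1r2, the decoy receptor of interleukin 1 and a neutrophil marker on the list, stood at 57.4, 11.2 and 5.54 CPM. Chil3, a lectin gene of macrophages and monocytes, stood at 224, 90.3 and 72.0 CPM, and was 2.48-fold (2.004 to 3.10) lower with GW5074 and 3.11-fold (2.51 to 3.89) lower in KO. Without neutrophil-gate cells its log2 ratio was −0.55 for GW5074, which no longer passed, and −0.90 for KO.

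Klhl6, which encodes a substrate adaptor of a ubiquitin ligase, stood at 64.5, 5.16 and 6.92 CPM in P1 cells, found in 75, 6 and 10 cells. It was 12.5-fold (5.60 to 34.7) lower with GW5074 and 9.32-fold (4.92 to 19.9) lower in KO. Without neutrophil-gate cells the log2 ratios were −3.32 and −2.89. P2 and P3 cells had −3.87 and −2.39 for GW5074, and −3.86 and −2.85 for KO. Cells with high Lyz2 had 154, 59.5 and 68.0 CPM. A lower level than in WT DMSO was thus measured in each of these classes, and whether P1 cells differed from them was not tested.

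Cirbp and Rbm3 encode RNA-binding proteins that rise when cells are cooled. Cirbp stood at 89.7, 30.1 and 24.2 CPM, found in 151, 35 and 34 P1 cells, and Rbm3 at 56.0, 24.1 and 20.8 CPM. Both were highest in WT DMSO. Cirbp was 2.98-fold (2.07 to 4.41) lower with GW5074 and 3.70-fold (2.57 to 5.47) lower in KO, and P3 cells had log2 ratios of −2.50 and −3.24. Ier3, an early response gene and a target of ERK, stood at 65.0, 18.1 and 15.9 CPM, with log2 ratios of −1.85 and −2.03. With cells thinned to 1000 UMIs, Ier3 was found in 5.28%, 1.89% and 1.75% of P1 cells. The shares were 3.55%, 1.54% and 0.876% of P2 cells and 4.36%, 1.13% and 0.676% of P3 cells. Cells with high Lyz2 had 94.6, 31.0 and 39.0 CPM. Whether P1 cells differed from these classes was not tested.

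Of the 3 counted markers of monocyte-derived macrophages other than Lyz2, 3 (Apoe, C1qb and Spp1) were higher with GW5074, beside 1.66% of all genes. Apoe, the lipid carrier, stood at 96.3, 268 and 167 CPM and the complement gene C1qb at 21.8, 52.4 and 36.7 CPM. Apoe was 2.78-fold (2.33 to 3.34) higher with GW5074 and 1.73-fold (1.43 to 2.098) higher in KO. The 13 listed markers of monocyte-derived macrophages other than Lyz2 summed to 383, 787 and 525 CPM in P1 cells, with none at 0. With Lyz2 included, the list summed to 809, 1874 and 1475 CPM in P1 cells. The same sums were 845, 1718 and 1557 CPM in P2 cells and 1108, 1981 and 1599 CPM in P3 cells. WT DMSO was thus the lowest library in all 3 classes. Lyz2, lysozyme, stood at 426, 1088 and 950.4 CPM. The rule caps Lyz2 per cell, so its level is bounded by the choice of cells and is given as a description. The part of macrophage RNA in these values was not tested.

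Il12rb2, a chain of the interleukin 12 receptor, was higher in both other libraries than in WT DMSO. It stood at 38.9, 75.7 and 161 CPM, found in 59, 66 and 125 P1 cells. It was 1.94-fold (1.42 to 2.66) higher with GW5074 and 4.15-fold (3.21 to 5.40) higher in KO. In KO the log2 ratios were 1.26 in P2 cells and 2.13 in P3 cells. Ctsd, the lysosomal protease cathepsin D, stood at 194, 365 and 208 CPM and was 1.88-fold (1.64 to 2.16) higher with GW5074. Il1rn, the interleukin 1 receptor antagonist, stood at 23.3, 54.2 and 31.1 CPM and was 2.33-fold (1.58 to 3.46) higher with GW5074. Its log2 ratio was −0.28 in P2 cells. Cells with high Lyz2 had 6830, 8093 and 6158 CPM of Ctsd and 90.3, 99.3 and 71.4 CPM of Il1rn. The part of macrophage RNA in the P1 values of both genes was not tested. Of 6 counted interleukin 1 genes with GW5074, 1 (Il1rn) was higher and 3 (Il1r2, Pycard and Gsdmd) were lower. Over all genes 1.66% were higher and 2% lower. In KO 0 of 5 were higher and 2 (Il1r2 and Pycard) lower, beside 3.9% and 8.35%.

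In KO cells the higher genes included chaperones and a chemokine. Hsp90aa1, a heat shock chaperone, stood at 171, 147 and 415 CPM and was 2.43-fold (2.13 to 2.78) higher in KO, with log2 ratios of 1.36 in P2 cells and 1.998 in P3 cells. Its co-chaperone gene Stip1 stood at 43.2, 55.9 and 103 CPM and was 2.39-fold (1.83 to 3.14) higher. Of the 11 counted heat shock and dissociation genes 3 were higher (Hsp90aa1, Hsp90ab1 and Btg2) and 0 lower in KO, beside 3.9% and 8.35% of all genes. With GW5074 0 were called, beside 1.66% and 2%. Ccl5, a chemokine for T cells and monocytes, stood at 2730.4, 2834 and 4641 CPM and was 1.70-fold (1.64 to 1.76) higher, with log2 ratios of 0.80 in P2 cells and 1.39 in P3 cells. Gpr183 stood at 132, 121 and 239.5 CPM and was 1.81-fold (1.54 to 2.13) higher. Aldh1a2, which makes retinoic acid, stood at 81.1, 90.3 and 146 CPM and was 1.80-fold (1.46 to 2.22) higher, and Socs1, a feedback inhibitor of cytokine signals, was 1.94-fold (1.43 to 2.63) higher.

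A few genes of antigen presentation were lower in KO. Cd1d1, which presents lipids, stood at 50.3, 36.1 and 13.8 CPM and was 3.63-fold (2.24 to 6.19) lower in KO, with −2.48 in P2 cells and −1.61 in P3 cells. H2-T23, which encodes the class Ib molecule Qa-1, stood at 425, 368 and 145 CPM and was 2.94-fold (2.53 to 3.43) lower, with log2 ratios of −1.58 in P2 cells and −1.14 in P3 cells. Tap1 was 1.69-fold (1.42 to 2.01) lower. Of 13 counted class I genes 2, H2-T23 and Tap1, were lower and 0 higher, with a median log2 ratio of −0.10 beside −0.04 and 8.35% lower over all genes. Of 12 counted class II genes 0 were higher and 0 lower, with a median of 0.04. Txnip, an inhibitor of thioredoxin, stood at 75.9, 61.0 and 22.8 CPM and was 3.32-fold (2.27 to 4.99) lower. Coro1a, an actin regulator, was 1.65-fold (1.47 to 1.87) lower, and Wdfy4, needed for cross-presentation, was 2.55-fold (1.71 to 3.89) lower.

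The highest ratio in KO, that of the club cell secretory gene Scgb1a1 at 3.32, 4.30 and 127 CPM, came from 1 cell. That cell held 175 of its 183 UMIs, and without it the log2 ratio was 1.22, which did not pass. Markers of epithelium and red cells summed to 19.0, 25.8 and 156 CPM, and 7, 4 and 7 of the 9 were at 0.

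Targets and feedback genes of the kinases MEK and ERK had a median log2 ratio of −0.20 with GW5074 and −0.34 in KO, over 10 genes at 10 CPM or more, beside 0.03 and −0.04 over all genes. Of the 5 counted, 1 (Ier3) was lower in each comparison and 0 higher, beside 2% and 8.35% lower over all genes. The values of Ier3 given above were also lower than in WT DMSO in P2 cells, P3 cells and cells with high Lyz2. Dusp6, a feedback phosphatase of ERK, stood at 6.17, 2.58 and 1.38 CPM, too few UMIs (13, 3 and 2) to compare.

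List medians of the maturation and T cell contact genes were taken without the genes the rule used, over genes at 10 CPM or more. They stand beside medians of 0.03 with GW5074 and −0.04 in KO over all genes. The shares of all genes called were 1.66% higher and 2% lower with GW5074, and 3.9% higher and 8.35% lower in KO. The 21 other genes of the maturation core had medians of 0.10 with GW5074 and 0.18 in KO. With GW5074 1 of 19 counted, Synpo2, was lower and 0 higher, and in KO 3 of 20 (Serpinb6b, Ccl5 and Ass1) were higher and 0 lower. Co-stimulatory genes had medians of 0.24 with GW5074 and 0.12 in KO, and of 10 counted 0 were called in either comparison. The interleukin 2 and shared γ chain list had medians of 0.09 with GW5074 and 0.12 in KO. There 1 of 11 counted genes, Socs1, was higher in KO and 0 lower, and 0 of 10 were called with GW5074. The Wnt list had medians of 0.16 with GW5074 and −0.16 in KO. There 1 of 5 counted, Lrp6, was higher with GW5074 and 0 lower, and 0 of 4 were called in KO. Tsc22d3, a gene that glucocorticoids induce, stood at 77.8, 45.6 and 46.4 CPM and was 1.71-fold (1.25 to 2.37) lower with GW5074 and 1.68-fold (1.26 to 2.26) lower in KO.

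Marker lists of other cells were measured in P1 cells as well. T and NK cell markers summed to 419.9, 421 and 517 CPM, most of it Il7r, which stood at 362, 380 and 494 CPM. B cell markers summed to 36.1, 19.8 and 6.23 CPM, resident alveolar macrophage markers to 400.5, 357 and 256 CPM, monocyte markers to 277, 116 and 99.7 CPM and cycling genes to 76.4, 60.2 and 49.8 CPM. Libraries shared 154, 80 and 119 barcodes (WT DMSO with GW5074, WT DMSO with KO, and GW5074 with KO), and 0 P1 cells were members in both libraries of a pair. The libraries held 39180331, 45462817 and 34859676 UMIs in 13504, 17809 and 11678 barcodes.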

How the data were processed

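The deposited matrices hold raw UMI counts per gene and cell barcode, whole numbers for each of 3 libraries. Cell Ranger 2.1.1 and the build mm10 are listed in the submitters' processing notes. Per the labels' protocols the libraries count 3′ ends, so levels do not scale with gene length. A SeekOne chip is named there, and another label names 10× Genomics. Every barcode had at least 500 UMIs, so barcodes with fewer were not in the deposited matrices.

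The filter on genes and mitochondrial UMIs removed 50, 17 and 36 barcodes. No doublet caller was run, and none of the cells was removed as a doublet. UMIs were summed over the cells of a class per library, 2107391, 1163191 and 1444623 for P1 cells, and scaled to CPM. Shares have exact Clopper-Pearson intervals, levels exact Poisson intervals, and ratios exact conditional binomial intervals. The ratio code was tested on simulated data. Gene positions came from GENCODE M21, which matched 32236 of 32286 identifiers (99.8%). Python 3.11.15, numpy 2.4.6, scipy 1.17.1, pandas 2.3.3 and matplotlib 3.10.9 were used.

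The class, its rule and the gene lists were chosen with earlier results of these data known. Named genes were the 12 highest and 12 lowest ratios per group comparison. Between classes they were the 15 highest and 10 lowest by the ratio nearest 0. Left out were genes of mitochondria, ribosomes, haemoglobin and antigen receptors, predicted models, Xist, Tsix and the Y-linked genes Ddx3y, Eif2s3y, Kdm5d and Uty. From each list the highest and lowest members were named as well. Which of them the text gives, and the genes given for their level alone, were chosen after their values were seen. List medians used genes at 10 CPM or more between groups and the counted genes between classes. Alternatives covered the cell filters, the panel thresholds, the scaling, the depth and single cells, and several were chosen after seeing the data.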

Additional observations from a re-analysis of the deposited data

Results flagged for a closer look

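Gcnt1, which encodes an enzyme that branches O-linked sugars, had ratios of opposite sign in mature cells of different classes. It stood at 25.6 CPM in P1 cells of the WT DMSO library, 53.3 CPM with GW5074 and 30.5 CPM in KO. The log2 ratio of GW5074 over WT DMSO was 1.06 in P1 cells and −0.86 in P2 cells. The difference was not tested, since each group was 1 library.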

How the results depend on the processing

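No alternative reversed a called value. On the log2 scale the KO ratio of P1 shares of the gate, 0.75, lay between 0.63 and 0.88 in the alternatives run. The GW5074 ratio of gate shares, 0.31 in the report, was 0.062 with at least 3 panel UMIs, 0.058 with at least 2 different panel genes, 0.49 with the panel at 2 times its rivals and 0.53 after thinning. The GW5074 ratio of shares of kept cells, −0.42, was −0.66, −0.67 and −0.23 under the first 3 of these settings, −0.62 with 500 genes per cell and a 10% limit on mitochondrial UMIs, −0.61 with Lyz2 under 0.2% and −0.78 without neutrophil-gate cells. The KO ratio, 0.04, was −0.13 with the stricter cell filter, −0.16 after thinning and −0.31 without neutrophil-gate cells. Thinning also left out every cell under 1000 UMIs, a share that differed between libraries. The cause was not tested. Counting genes from 20 CPM, which tests more genes, gave 235 higher and 681 lower genes in KO, 171 higher and 191 lower with GW5074, and 214 higher over P2 cells. With GW5074, 84 genes were higher without the 10% deepest cells and 96 with at least 2 different panel genes. Scaling by the median of ratios gave 213 genes lower than in P2 cells. Over P3 cells 2 genes were higher with at least 3 panel UMIs and 3 with Lyz2 under 0.2%, and 3 were lower with at least 2 different panel genes. Of the genes named and called, 25 of 33 passed in every alternative run for GW5074, 43 of 52 for KO, 31 of 33 over P2 cells, 3 of 12 over P3 cells and 13 of 20 for the division by Clu. The requirement of 2 different panel genes, the removal of each gene's top cell or of neutrophil-gate cells, and the division by Clu were chosen after seeing the data. No paired analysis was possible because each group was 1 library. The shallow GW5074 cells limit what could be detected there.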
